A study of Homo sapiens with 44 samples.

Results

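The genes described here encode the kinases, adaptors and ubiquitin ligases that carry signals to the transcription factor NF-kB, with weight on its non-canonical arm. The 10 genes were taken by name: MAP3K14, CHUK, IKBKB, IKBKG, TRAF1, TRAF2, TRAF3, TRAF6, BIRC2 and BIRC3. All 10 were found in the 58735 genes of the count table and all 10 in the 27315 gene symbols of the variance-stabilised table, and all 10 passed the filters on low values in both. The series has 44 samples, of which 14 are RNA libraries in 7 groups of 2 biological replicates. The 30 chromatin libraries were not analysed here. In the first experiment MDA-MB-231 cells received siRelA, siRelB or siControl. In the second, MDA-MB-231 cells and SUM149 cells each received siEZH2 or siControl. Both lines come from human triple-negative breast cancers, SUM149 from an inflammatory one, and no other allele or agent is named for these groups. The small interfering RNAs (siRNAs) were given at 20 nM in a transient transfection and cells were collected 48 h later. The RNA therefore comes from mixed populations of transfected cells, and no siRNA sequence is printed, since the sources used here give none.

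NF-kB dimers are held in the cytoplasm by inhibitor proteins until an IkB kinase is activated. In the canonical arm the kinase complex of IKBKB (IKK-beta), CHUK (IKK-alpha) and the scaffold IKBKG (NEMO) marks the inhibitors for destruction and frees dimers that contain RelA. In the non-canonical arm MAP3K14 (NIK) activates CHUK, which triggers processing of the NFKB2 precursor to p52, the partner of RelB. In resting cells TRAF3 and TRAF2 bring the ubiquitin ligases BIRC2 (cIAP1) and BIRC3 (cIAP2) to the NIK protein and keep it low by degradation. TRAF1 is an adaptor of the same family without a ligase domain, and TRAF6 is the ligase used by interleukin-1 and Toll-like receptors. BIRC3 and TRAF1 are known targets of canonical NF-kB, so the group holds both components and outputs of the pathway.

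The promoters of 9 of the 10 genes were found in the RefSeq table (GRCh38.p14), as windows of 300 bases from 250 before to 50 after the start. The 10-base NF-kB consensus was searched on both strands. It was present in 2 of the 9 windows, against 2958 of all 27305 promoter windows (10.8%). BIRC3, the gene with the largest response below, and TRAF3 hold a match. TRAF1 is shown beside them as a gene whose mRNA also fell under siRelA while its window holds none. CHUK and BIRC2, likewise called lower under siRelA, have windows without a match too. Letters in capitals mark the matches. The BIRC3 window is chr11:102317234-102317533 on the plus strand, with matches that begin 199 and 135 bases before the start, both read on the strand opposite to the gene and so printed here as reverse complements of the motif. The TRAF3 window is chr14:102777199-102777498 on the plus strand, with 1 match that begins 33 bases before the start. The TRAF1 window is chr9:120929122-120929421 on the minus strand. The matches do not overlap each other. Such a match is a run of letters and was not checked for binding, and a window without one says nothing about binding elsewhere.
BIRC3: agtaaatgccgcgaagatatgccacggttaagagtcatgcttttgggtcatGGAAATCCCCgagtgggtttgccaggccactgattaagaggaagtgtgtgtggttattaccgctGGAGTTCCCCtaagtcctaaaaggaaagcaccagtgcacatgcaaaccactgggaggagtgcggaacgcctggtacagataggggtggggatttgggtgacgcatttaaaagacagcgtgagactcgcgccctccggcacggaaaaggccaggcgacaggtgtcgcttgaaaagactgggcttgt
TRAF3: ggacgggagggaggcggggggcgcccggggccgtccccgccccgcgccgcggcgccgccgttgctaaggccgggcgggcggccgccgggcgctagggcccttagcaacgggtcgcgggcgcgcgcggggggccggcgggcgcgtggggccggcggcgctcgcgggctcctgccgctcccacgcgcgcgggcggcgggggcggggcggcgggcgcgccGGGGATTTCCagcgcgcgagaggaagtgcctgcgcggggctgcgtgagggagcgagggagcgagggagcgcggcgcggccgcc
TRAF1: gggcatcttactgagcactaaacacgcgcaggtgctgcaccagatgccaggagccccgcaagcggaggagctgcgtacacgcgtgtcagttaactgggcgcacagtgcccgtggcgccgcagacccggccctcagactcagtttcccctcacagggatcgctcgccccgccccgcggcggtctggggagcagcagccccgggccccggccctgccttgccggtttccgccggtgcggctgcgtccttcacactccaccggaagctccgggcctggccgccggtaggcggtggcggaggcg

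The deposited counts of the first experiment summed to 18.6 to 24.4 M reads per library. The second experiment was deposited on a variance-stabilised log2 scale. Inverting that scale gave normalised counts and implied depths of 17.4 to 38.1 M reads per library, the lowest in SUM149 siControl replicate 1. Each group has 2 libraries. The p-values measure the spread between libraries of a group, pooled over the groups of an experiment and moderated with that of other genes. The targeted mRNAs were low in every library labelled with their siRNA. RELA was 13.05-fold lower under siRelA, RELB 7.88-fold lower under siRelB, and EZH2 5.54-fold lower under siEZH2 in SUM149 and 9.08-fold lower in MDA-MB-231. RELB mRNA was also 2.80-fold lower under siRelA, and under siEZH2 it was 1.73-fold lower in SUM149 and 3.13-fold lower in MDA-MB-231. In the siEZH2 experiment, markers were read as normalised counts. The SUM149 libraries held the basal keratins KRT5 at 1014 to 1949, KRT6A at 1273 to 4356 and KRT17 at 248 to 637, and EPCAM at 166 to 1594, but KRT14 at 0 to 4.06 and CDH1 at 102 to 162. They also held the mesenchymal markers VIM at 62193 to 85203, AXL at 10485 to 12230 and SNAI2 at 1732 to 4023, but SPARC at only 0 to 10.1. Their markers thus go only partly with an epithelial line, the identity of the line was not tested, and SUM149 stands below for the libraries so labelled. The MDA-MB-231 libraries held VIM at 33519 to 51272, AXL at 45117 to 48324 and SNAI2 at 766 to 1066, but the mesenchymal marker SPARC at only 5.68 to 28.3. Their KRT5, KRT14 and KRT6A were at 0 to 3.79, while the epithelial marker EPCAM was at 518 to 1410. ESR1 and PGR were at 0 to 3.36 in both lines, and ERBB2 was at 348 to 533 in SUM149 and 1612 to 2362 in MDA-MB-231. The leukocyte markers PTPRC and CD3E and the endothelial marker CDH5 were at 0 to 2.48, whereas CD14 reached 118 in SUM149 and PECAM1 30.4 in MDA-MB-231.

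The first comparison asks which of these genes changed under siRelA, where RELB mRNA was lower as well. BIRC3 fell far more than any other of the 10 under siRelA. TRAF1, CHUK, TRAF3 and BIRC2 fell by less, and MAP3K14 was the 1 gene called higher. In all, 6 of 10 passed (1 higher and 5 lower), where 19.0% of the 15930 genes tested passed (8.82% higher and 10.2% lower). The median log2 change of the 10 was -0.33, beside 0.02 over all genes tested. In bulk RNA, fewer cells that express a gene and less RNA per cell cannot be told apart. Calls are edgeR quasi-likelihood tests with Benjamini-Hochberg adjustment over all genes tested, at adjusted p under 0.05. Values below are CPM, counts scaled to library size and composition, with the raw counts where they help. A list of 4 fibroblast markers summed to 47.3 to 56.7 CPM under siRelA, 36.6 to 41.6 CPM under siRelB and 30.3 to 31.9 CPM in siControl cells, with DCN at 0 in all. Under siRelB, 6 basal epithelial markers summed to 12.7 to 14.2 CPM, against 19.9 to 22.1 CPM in siControl cells. The 3 endothelial markers summed to 0.56 to 0.74 CPM, against 2.20 to 2.38 CPM. Most of these 2 sums came from 1 gene each, with EPCAM at 12.6 to 21.9 CPM and PECAM1 at 0.56 to 2.34 CPM over the siRel libraries. The part of these lists in the changes was not tested.

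BIRC3 lies at chr11:102317484-102339403 on the plus strand (GRCh38, GENCODE v44) and had 246 and 190 counts in the siRelA libraries, 1138 and 1409 in the siRelB libraries and 1093 and 1409 in the siControl libraries. Scaled, these were 9.96 and 8.64 CPM under siRelA, 60.4 and 71.1 CPM under siRelB, and 47.1 and 62.2 CPM in siControl cells. The siRelA libraries lie well below all others, and the siRelB and siControl libraries overlap. The mean was 9.30 ± 0.93 CPM under siRelA and 54.6 ± 10.7 CPM in siControl cells (SD, n = 2 each), 5.88-fold lower, with a log2 change of -2.55 ± 0.15 (SE; edgeR adjusted p = 5.8e-09). BIRC2, the neighbouring and more abundant cIAP gene (chr11:102347211-102378670, plus strand), had 115 and 113 CPM under siRelA and 141 and 158 CPM in siControl cells. The groups did not overlap and the fall was 1.31-fold (-0.39 ± 0.09, edgeR adjusted p = 0.0046). Without siControl replicate 2 the BIRC2 change was -0.31 and did not pass (adjusted p = 0.077).

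TRAF1 (chr9:120902393-120929173, minus strand) had 25.2 and 23.1 CPM under siRelA, 50.6 and 50.1 CPM under siRelB, and 41.1 and 49.3 CPM in siControl cells. Its siRelA libraries lay below all the others, and it fell 1.87-fold against siControl (-0.90 ± 0.12, edgeR adjusted p = 5.1e-05). TRAF3 (chr14:102777449-102911500, plus strand), the adaptor that binds NIK, had 58.2 and 51.2 CPM under siRelA and 68.4 and 76.2 CPM in siControl cells. It fell 1.32-fold (-0.40 ± 0.10, edgeR adjusted p = 0.0114), a call lost without siControl replicate 2 (-0.33, adjusted p = 0.126) or siRelA replicate 2 (-0.32, adjusted p = 0.080). TRAF2 (chr9:136881912-136926607, plus strand), which links TRAF3 to the cIAPs, had 47.5 and 51.1 CPM under siRelA and 56.0 and 58.4 CPM in siControl cells. These groups did not overlap either, but TRAF2 did not pass (-0.22 ± 0.10, edgeR adjusted p = 0.152). TRAF6 (chr11:36483769-36510272, minus strand) had 14.5 CPM in both siRelA libraries and 15.3 and 16.9 CPM in siControl cells (-0.15 ± 0.16, not called).

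Among the kinases, CHUK (chr10:100188300-100229596, minus strand) had 55.3 and 60.0 CPM under siRelA, 77.9 and 69.1 CPM under siRelB, and 77.0 and 89.7 CPM in siControl cells. CHUK fell 1.45-fold under siRelA (-0.53 ± 0.11, edgeR adjusted p = 0.0019). MAP3K14 (chr17:45263119-45317029, minus strand) moved the other way, with 90.5 and 86.9 CPM under siRelA and 64.4 and 69.8 CPM in siControl cells, 1.32-fold higher (0.40 ± 0.09, edgeR adjusted p = 0.0050). Without siControl replicate 1 the MAP3K14 rise was 0.34 and did not pass (adjusted p = 0.095). An antisense gene, MAP3K14-AS1, shares 858 exon bases with it, and had 35 and 36 counts under siRelA, 28 and 31 under siRelB and 24 and 19 in siControl cells, against 1495 or more for MAP3K14. IKBKB had 37.6 and 42.9 CPM under siRelA and 50.2 and 46.1 CPM in siControl cells and did not pass (-0.26 ± 0.11, edgeR adjusted p = 0.133). IKBKG (chrX:154541199-154565046, plus strand) had 17.5 and 22.2 CPM under siRelA and 21.4 and 14.6 CPM in siControl cells, which overlap (0.14 ± 0.18). The IKBKG values are uncertain: a near-identical pseudogene, IKBKGP1, had 10 to 81 counts, and whether reads were counted by strand is not stated in the sources used here.

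Knockdown of RelB, the non-canonical partner, gave a different picture. MAP3K14 rose 2.18-fold, and TRAF2 was the 1 other gene that passed. In all, 2 of 10 genes passed (2 higher and 0 lower), where 18.3% of all genes tested passed (7.45% higher and 10.8% lower), and the median log2 change was 0.08 beside 0.01 over all genes tested. The siRelA and siRelB comparisons share their siControl libraries, so their values are given side by side.

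MAP3K14 had 141 and 152 CPM under siRelB and 64.4 and 69.8 CPM in siControl cells, from 2660 and 3005 against 1495 and 1581 counts. Both siRelB libraries exceed every library of the other groups of this experiment. The mean was 146 ± 7.48 CPM under siRelB and 67.1 ± 3.77 CPM in siControl cells (SD, n = 2 each; log2 change 1.13 ± 0.09, edgeR adjusted p = 3.1e-07). TRAF2 had 72.6 and 69.2 CPM under siRelB and 56.0 and 58.4 CPM in siControl cells, 1.24-fold higher (0.31 ± 0.10, edgeR adjusted p = 0.0383). The TRAF2 call was lost without any 1 of the 4 libraries compared (0.27 to 0.33, adjusted p up to 0.234). BIRC3 was 0.27 ± 0.13 under siRelB (adjusted p = 0.187), with a range from 0.07 without siControl replicate 1 to 0.47 without siControl replicate 2. BIRC2 (0.01 ± 0.09), TRAF3 (-0.05 ± 0.10), TRAF1 (0.15 ± 0.12), CHUK (-0.18 ± 0.11), IKBKB (-0.15 ± 0.11), IKBKG (0.22 ± 0.19) and TRAF6 (-0.26 ± 0.16) did not pass in edgeR.

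Set directly against siRelB, siRelA left 7 of the 10 genes lower and 0 higher, where 29.9% of all genes tested passed (2541 genes higher and 2227 lower). The median log2 difference was -0.38 beside 0.01 over all genes. BIRC3 was 7.07-fold lower under siRelA than under siRelB (-2.82 ± 0.15, edgeR adjusted p = 1.5e-09), and TRAF1 2.08-fold lower (-1.06 ± 0.12). MAP3K14, which rose under both siRNAs, was 1.65-fold lower under siRelA than under siRelB (-0.72 ± 0.09, edgeR adjusted p = 1.5e-05). TRAF2 (-0.52 ± 0.10) and BIRC2 (-0.41 ± 0.09) were lower as well. CHUK (-0.35 ± 0.11) lost its call without siRelA replicate 1 (-0.31) or siRelB replicate 1 (-0.27). TRAF3 (-0.35 ± 0.10) lost it without siRelA replicate 2 (-0.26) or siRelB replicate 2 (-0.30).

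**Figure D1:**
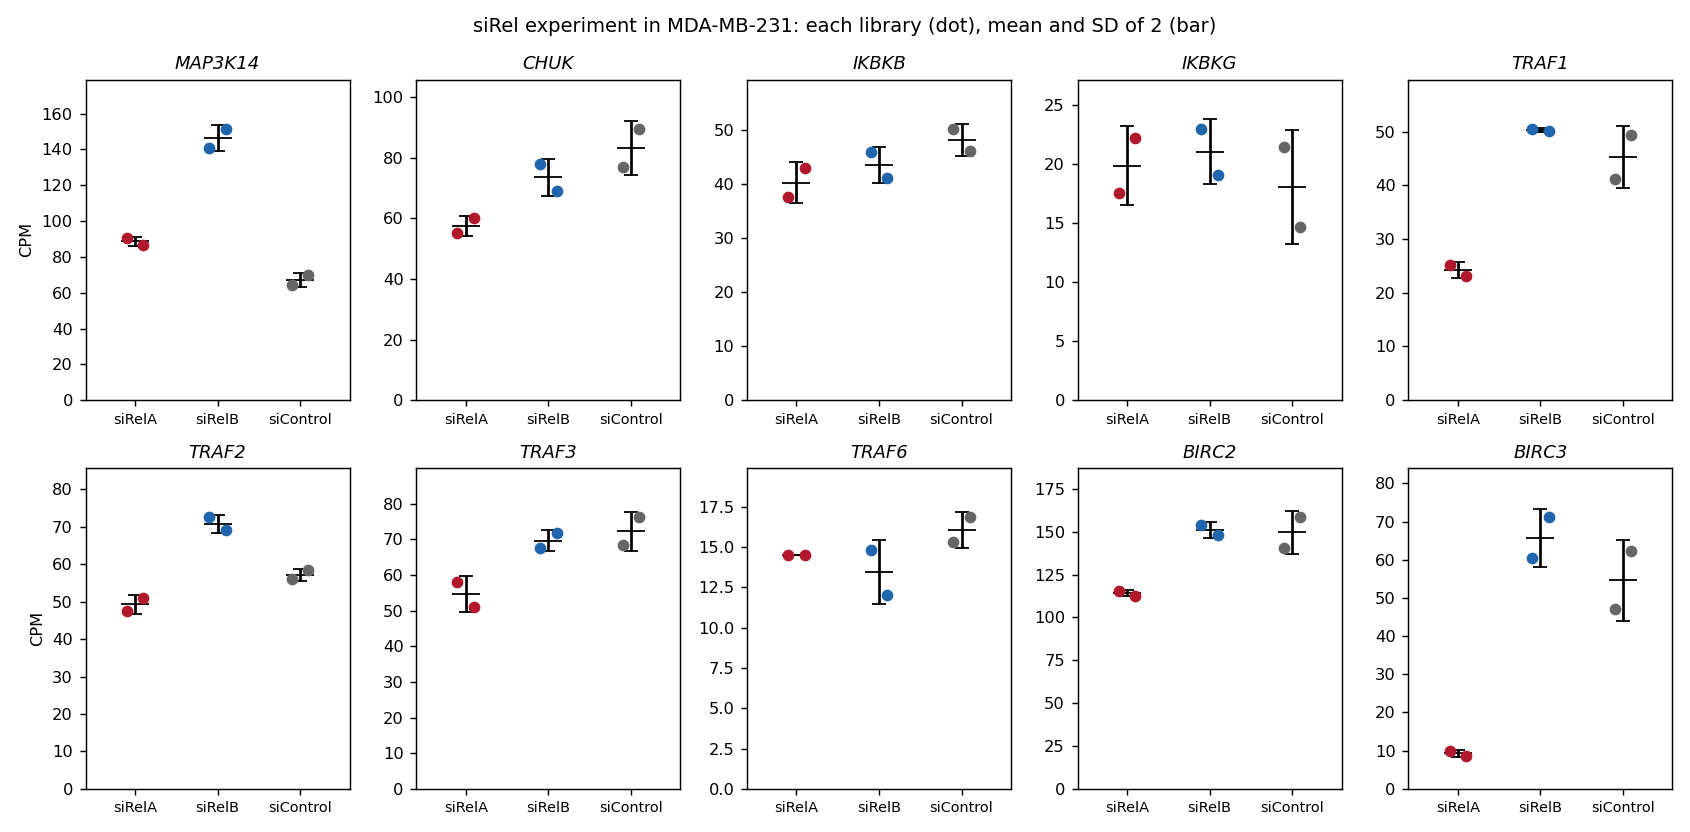
CPM (vertical axis, from 0, scaled per gene) of the 10 genes in each library of the siRel experiment in MDA-MB-231 cells. Dots are libraries, bars the mean and SD of 2. For BIRC3 the siRelA libraries, at 9.96 and 8.64 CPM, lie far below the others, and for MAP3K14 the siRelB libraries, at 141 and 152 CPM, lie far above.

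The siEZH2 comparisons ask which of these genes changed under knockdown of EZH2, the methyltransferase of Polycomb repressive complex 2. In MDA-MB-231 cells BIRC2 fell most, followed by TRAF2, MAP3K14 and BIRC3, and CHUK fell slightly, whereas TRAF3 rose slightly. In all, 6 of 10 genes passed (1 higher and 5 lower). EZH2 knockdown changed a large part of the transcriptome, however, and 56.6% of the 12356 genes tested passed (29.4% higher and 27.1% lower), so the share among the 10 was close to that of all genes. The median difference of the 10 was -0.16, beside 0.00 over all genes. Differences are limma estimates on the variance-stabilised log2 scale, which understates the change of low genes, and folds and levels are given on the normalised counts. A list of 5 haematopoietic markers summed to 38.0 to 51.6 normalised counts in siEZH2 and 9.41 to 15.1 in siControl cells of MDA-MB-231, and to 98.2 to 118 and 22.7 to 39.3 in those of SUM149. Of these, CD14 alone was at 21.5 to 118 in SUM149 and 6.56 to 33.9 in MDA-MB-231, and CD3E was at 0 in all libraries. The summed level of 6 basal epithelial markers was lower under siEZH2 in MDA-MB-231 (533 to 576, against 1342 to 1452 with siControl). It was higher in SUM149 (6756 to 7260, against 4213 to 4247). In MDA-MB-231 EPCAM alone was at 518 to 1410 and made up most of that sum. The 5 mesenchymal markers summed to 100730 to 103680 with siEZH2 and 81425 to 83842 with siControl in MDA-MB-231. In SUM149 they summed to 101660 to 103880 and 75628 to 78748. The 3 endothelial markers summed to 35.3 to 38.6 with siEZH2 and 12.3 to 17.8 with siControl in MDA-MB-231, and stayed at or under 5.88 in SUM149. The part of these lists was not tested.

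BIRC2 had 3468 and 3641 normalised counts in siEZH2 cells and 6365 and 5914 in siControl cells of MDA-MB-231. The siEZH2 libraries were both lower, 1.73-fold on average, with a difference of -0.74 ± 0.06 (SE; limma adjusted p = 1.4e-07). BIRC3 had 2980 and 2981 normalised counts in siEZH2 cells and 4100 and 3905 in siControl cells, 1.34-fold lower (-0.39 ± 0.05, limma adjusted p = 3.5e-05). TRAF2 had 1061 and 1243 normalised counts in siEZH2 cells and 1637 and 1750 in siControl cells, 1.47-fold lower (-0.47 ± 0.08, limma adjusted p = 1.6e-04). MAP3K14, which had risen under siRelA and siRelB, here had 3147 and 2786 normalised counts in siEZH2 cells and 3787 and 4181 in siControl cells, 1.34-fold lower (-0.40 ± 0.07, limma adjusted p = 2.5e-04).

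CHUK had 2119 and 2254 normalised counts in siEZH2 cells and 2572 and 2497 in siControl cells (-0.19 ± 0.06, limma adjusted p = 0.0129). The CHUK call was lost without siControl replicate 1 (-0.17, adjusted p = 0.089) or siEZH2 replicate 1 (-0.15, adjusted p = 0.088). TRAF3, the 1 gene of the 10 called higher, had 1810 and 1868 normalised counts in siEZH2 cells and 1562 and 1594 in siControl cells (0.19 ± 0.05, limma adjusted p = 0.0089). It did not pass without siControl replicate 1 (0.18). TRAF1 (-0.14 ± 0.06, limma adjusted p = 0.083), IKBKB (0.11 ± 0.06), IKBKG (0.15 ± 0.07) and TRAF6 (0.09 ± 0.06) did not pass. TRAF1 passed with each library centred on its median (-0.17, adjusted p = 0.032), and IKBKG passed without siEZH2 replicate 1 (0.23, adjusted p = 0.028).

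In SUM149 cells the falls of TRAF2 and BIRC3 were seen again, while BIRC2 and MAP3K14 did not pass. In all, 6 of 10 genes passed (2 higher and 4 lower), where 58.0% of all genes tested passed (29.4% higher and 28.6% lower), and the median difference was -0.04 beside 0.00 over all genes. TRAF2 had 923 and 867 normalised counts in siEZH2 cells and 1397 and 1198 in siControl cells, 1.45-fold lower (-0.43 ± 0.08, limma adjusted p = 3.2e-04). BIRC3 had 5945 and 6435 normalised counts in siEZH2 cells and 7476 and 7336 in siControl cells, 1.20-fold lower (-0.25 ± 0.05, limma adjusted p = 0.0014). Both calls held when any 1 of the 4 libraries compared was left out. BIRC2 had 2307 and 2432 normalised counts in siEZH2 cells and 2464 and 2549 in siControl cells (-0.07 ± 0.06, limma adjusted p = 0.275). MAP3K14 had 964 and 877 normalised counts in siEZH2 cells and 933 and 925 in siControl cells, which overlap (-0.01 ± 0.07).

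The other calls in SUM149 were small and each depended on single libraries. CHUK fell, with 1621 and 1738 normalised counts in siEZH2 cells and 2018 and 1857 in siControl cells (-0.18 ± 0.06, limma adjusted p = 0.0180), but not without siControl replicate 1 (-0.13) or siEZH2 replicate 1 (-0.14). IKBKB fell, with 2564 and 2644 normalised counts in siEZH2 cells and 2833 and 3078 in siControl cells (-0.17 ± 0.06, limma adjusted p = 0.0237), but not without siControl replicate 2 (-0.11), siEZH2 replicate 1 (-0.15) or siEZH2 replicate 2 (-0.19). IKBKG rose, with 720 and 778 normalised counts in siEZH2 cells and 615 and 585 in siControl cells (0.24 ± 0.07, limma adjusted p = 0.0095), but not without siEZH2 replicate 2 (0.19). TRAF1 rose, with 659 and 746 normalised counts in siEZH2 cells and 604 and 583 in siControl cells (0.18 ± 0.06, limma adjusted p = 0.0274), but not without siControl replicate 1 (0.19), siControl replicate 2 (0.16) or siEZH2 replicate 2 (0.11), nor in a fit of only these 2 groups (0.18, adjusted p = 0.053). TRAF3 (0.05 ± 0.05) and TRAF6 (0.03 ± 0.06) did not pass. Left without siEZH2 replicate 2, the count of called genes was 3 in place of 6.

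**Figure D2:**
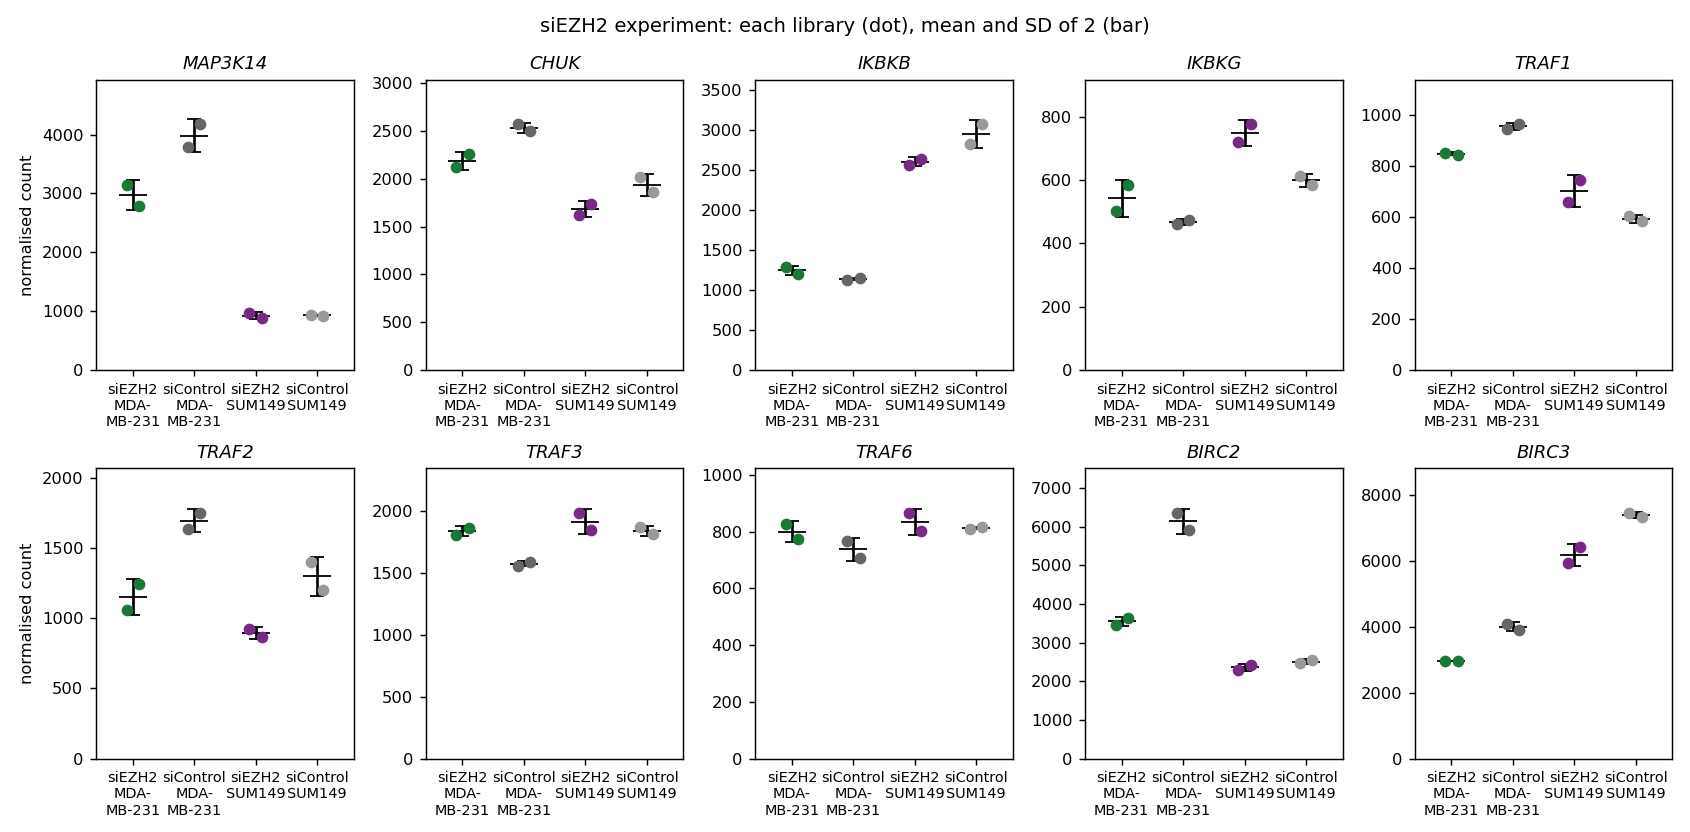
Normalised counts (vertical axis, from 0, scaled per gene) of the 10 genes in each library of the siEZH2 experiment, with siEZH2 beside siControl for MDA-MB-231 and then for SUM149. Dots are libraries, bars the mean and SD of 2. BIRC2 is lower under siEZH2 in MDA-MB-231 (3468 and 3641 against 6365 and 5914) and nearly level in SUM149 (2307 and 2432 against 2464 and 2549).

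**Figure D3:**
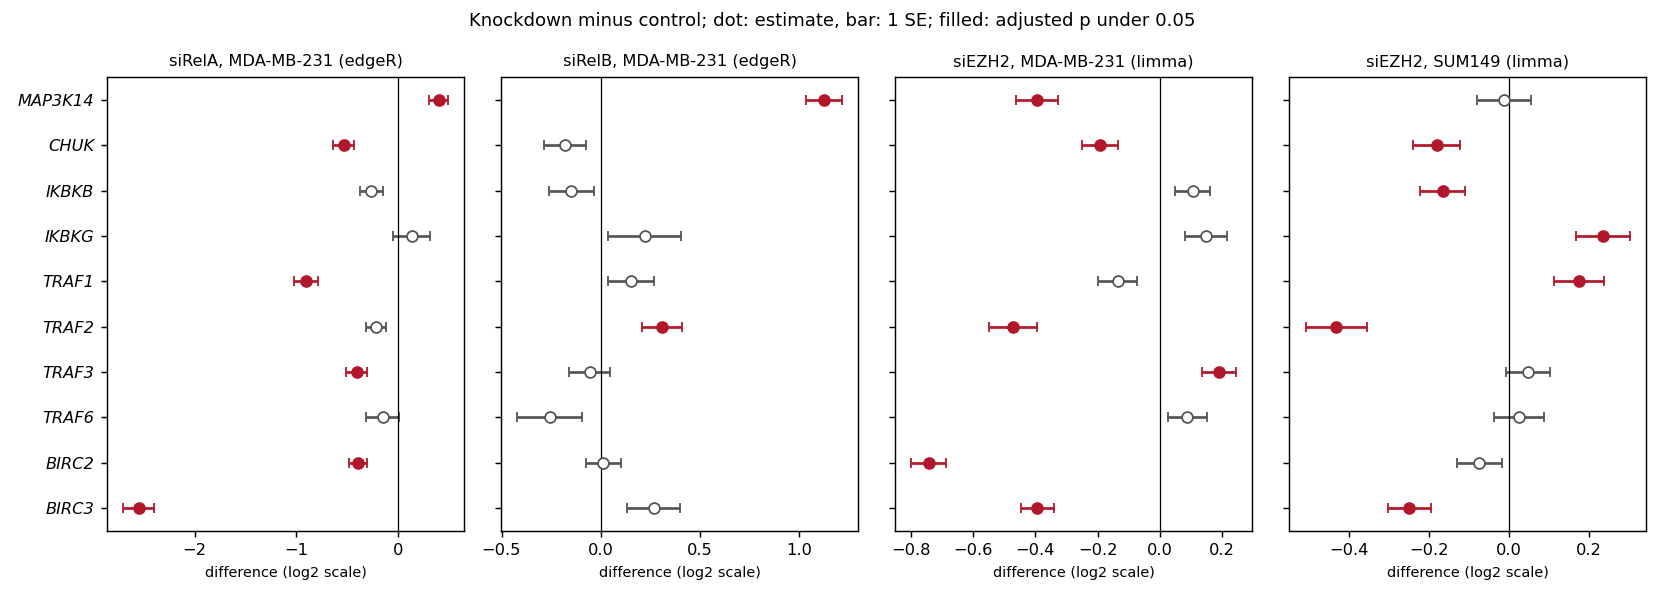
Change of each gene in the 4 knockdown comparisons, as knockdown minus siControl on the log2 scale (horizontal axis, which differs between panels; edgeR log2 changes for siRelA and siRelB, differences of variance-stabilised values for siEZH2). Dots are estimates, bars 1 SE, and filled dots have adjusted p under 0.05; MAP3K14 lies at 0.40 and 1.13 under siRelA and siRelB and at -0.40 and -0.01 under siEZH2 in MDA-MB-231 and SUM149.

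Whether the siEZH2 effect differed between the lines was tested with the interaction term. It passed for 4 of 10 genes (3 higher and 1 lower), where 21.5% of all genes tested passed (11.2% higher and 10.4% lower). A positive value means a smaller fall, or a larger rise, in SUM149 than in MDA-MB-231. BIRC2 differed most (0.67 ± 0.08, limma adjusted p = 6.4e-05), with an effect of -0.07 in SUM149 and -0.74 in MDA-MB-231, and held without any 1 of the 8 libraries. MAP3K14 (0.38 ± 0.10, adjusted p = 0.0121) did not pass without siControl MDA-MB-231 replicate 2 (0.32), siEZH2 MDA-MB-231 replicate 2 (0.30) or siEZH2 SUM149 replicate 1 (0.33). TRAF1 (0.31 ± 0.09, adjusted p = 0.0237) did not pass without siControl MDA-MB-231 replicate 1 (0.32) or 2 (0.30), siEZH2 MDA-MB-231 replicate 2 (0.31), siControl SUM149 replicate 2 (0.29) or siEZH2 SUM149 replicate 2 (0.25). IKBKB (-0.27 ± 0.08, adjusted p = 0.0290) lost its call in 6 of the 8 such fits, all but those without siEZH2 MDA-MB-231 replicate 2 and siControl SUM149 replicate 1 (-0.33 to -0.22 over the 8). The difference was 0.14 ± 0.08 for BIRC3 and 0.04 ± 0.11 for TRAF2, and neither passed. EZH2 mRNA itself fell by less in SUM149 (0.51 ± 0.10, limma adjusted p = 0.0035), and the part of this in the differences was not tested.

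Between the siControl cells of the lines, MAP3K14 and BIRC2 were lower and IKBKB and BIRC3 higher in SUM149. Of the 10, 9 passed (4 higher and 5 lower in SUM149), close to the share of all genes tested, of which 82.8% passed (41.3% higher and 41.5% lower). The median difference was -0.11 beside 0.00 over all genes. MAP3K14 differed most: SUM149 had 933 and 925 normalised counts and MDA-MB-231 had 3787 and 4181, 4.29-fold lower in SUM149 (-1.84 ± 0.07, limma adjusted p = 1.1e-11). BIRC2 had 2464 and 2549 normalised counts in SUM149 and 6365 and 5914 in MDA-MB-231, 2.45-fold lower in SUM149 (-1.21 ± 0.06). TRAF1 (-0.52 ± 0.06), CHUK (-0.35 ± 0.06) and TRAF2 (-0.33 ± 0.08) were lower in SUM149 too.

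IKBKB, the kinase of the canonical arm, was 2.60-fold higher in SUM149, with 2833 and 3078 normalised counts against 1126 and 1150 in MDA-MB-231 (1.20 ± 0.06, limma adjusted p = 1.5e-10). BIRC3 was 1.85-fold higher, with 7476 and 7336 normalised counts in SUM149 and 4100 and 3905 in MDA-MB-231 (0.85 ± 0.05, limma adjusted p = 3.5e-09). IKBKG (0.25 ± 0.07) and TRAF3 (0.19 ± 0.05) were slightly higher in SUM149, and TRAF6 (0.11 ± 0.06) did not pass. All 9 calls held without any 1 of the 4 libraries. Of the fibroblast markers, DCN had 2024 to 4626 normalised counts in SUM149 and 0 to 3.43 in MDA-MB-231, whereas LUM was at 0 to 0.98 and PDGFRB at 6.75 to 9.82 in SUM149. The 4 summed to 4616 to 4862 in SUM149 siEZH2 and 2217 to 2351 in SUM149 siControl, and to 390 to 430 in MDA-MB-231 siEZH2 and 285 to 298 in MDA-MB-231 siControl, and their part in the line and siEZH2 differences was not tested.

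**Figure D4:**
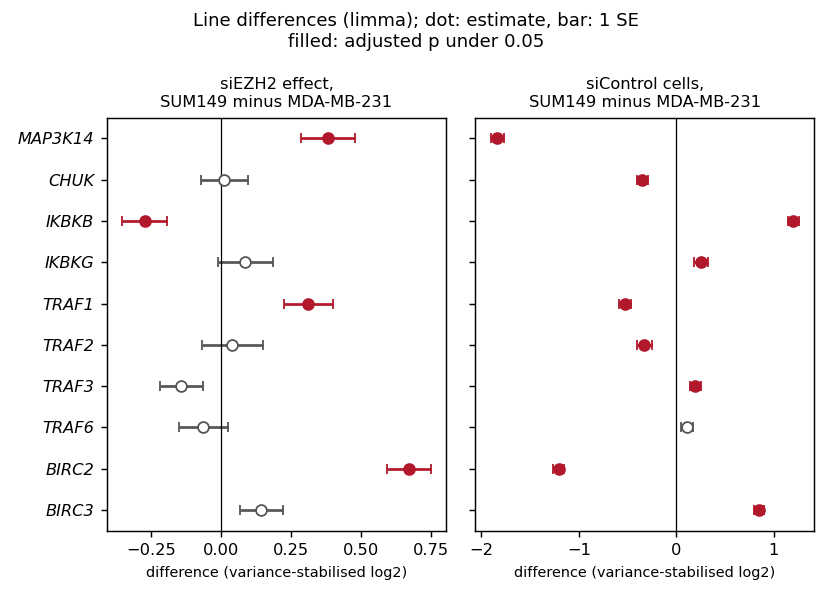
Left, difference of the siEZH2 effect between the lines; right, difference between siControl cells; both SUM149 minus MDA-MB-231 on the variance-stabilised log2 scale (horizontal axis, which differs between panels). Dots are limma estimates, bars 1 SE, and filled dots have adjusted p under 0.05; BIRC2 has the largest interaction (0.67) and MAP3K14 the largest line difference (-1.84).

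Levels were compared between genes per kilobase of GENCODE v44 exon, within an experiment. The length counts all annotated exons of a gene, whether or not they are expressed here, so the order and shares below depend on it. In the siControl cells of the siRel experiment BIRC2 was highest at 33.1 ± 2.76 CPM per kilobase, followed by TRAF2 at 15.6, CHUK at 12.1 and MAP3K14 at 11.8, TRAF1 at 10.1, BIRC3 at 7.30 and TRAF3 at 6.09, IKBKB at 4.36, IKBKG at 3.32 and TRAF6 at 1.98 (means, n = 2). In that order CHUK and MAP3K14 overlapped, as did BIRC3 and TRAF3. Under siRelA BIRC3 stood last at 1.24 ± 0.12 CPM per kilobase, below TRAF6, and under siRelB MAP3K14 stood second at 25.8 ± 1.32.

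In the siEZH2 experiment the order differed between the lines. SUM149 siControl cells had BIRC3 first at 990 ± 13.1 normalised counts per kilobase, then BIRC2 at 555 and TRAF2 at 354, CHUK at 281 and IKBKB at 268 overlapping, then MAP3K14 at 164, TRAF3 at 155, TRAF1 at 133, IKBKG at 111 and TRAF6 at 100.04. MDA-MB-231 siControl cells had BIRC2 first at 1359 ± 70.7 normalised counts per kilobase, then MAP3K14 at 703, BIRC3 at 535, TRAF2 at 462, CHUK at 367, TRAF1 at 214, TRAF3 at 133 and IKBKB at 103, with TRAF6 at 90.7 and IKBKG at 86.1 overlapping. Under siEZH2 the first 3 genes by mean were BIRC3, BIRC2 and TRAF2 in SUM149 and BIRC2, MAP3K14 and BIRC3 in MDA-MB-231. These were the same as in the siControl cells of each line. In SUM149 siEZH2 cells, however, TRAF2 at 244 and CHUK at 243 overlapped, unlike in SUM149 siControl cells.

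The balance of the cIAP pair followed from these values. Per kilobase, BIRC3 made up 4.96% and 4.42% of BIRC2 plus BIRC3 in siRelA libraries, 19.1% and 22.5% in siRelB libraries, and 16.8% and 19.2% in siControl libraries. With siEZH2 it made up 34.2% and 33.1% in MDA-MB-231, against 28.0% and 28.5% in siControl cells. In SUM149 it made up 60.9% and 61.5% with siEZH2 and 64.7% and 63.5% with siControl, so BIRC3 was the larger part of the pair in every SUM149 library and the smaller part in every MDA-MB-231 library. Per kilobase, IKBKB made up 46.7% and 50.9% of IKBKB plus CHUK in SUM149 siControl cells. In MDA-MB-231 siControl cells of the same experiment it made up 21.5% and 22.3%. Before division by exon length, the SUM149 siControl means were 2955.9 normalised counts for IKBKB and 1937.5 for CHUK.

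**Figure D5:**
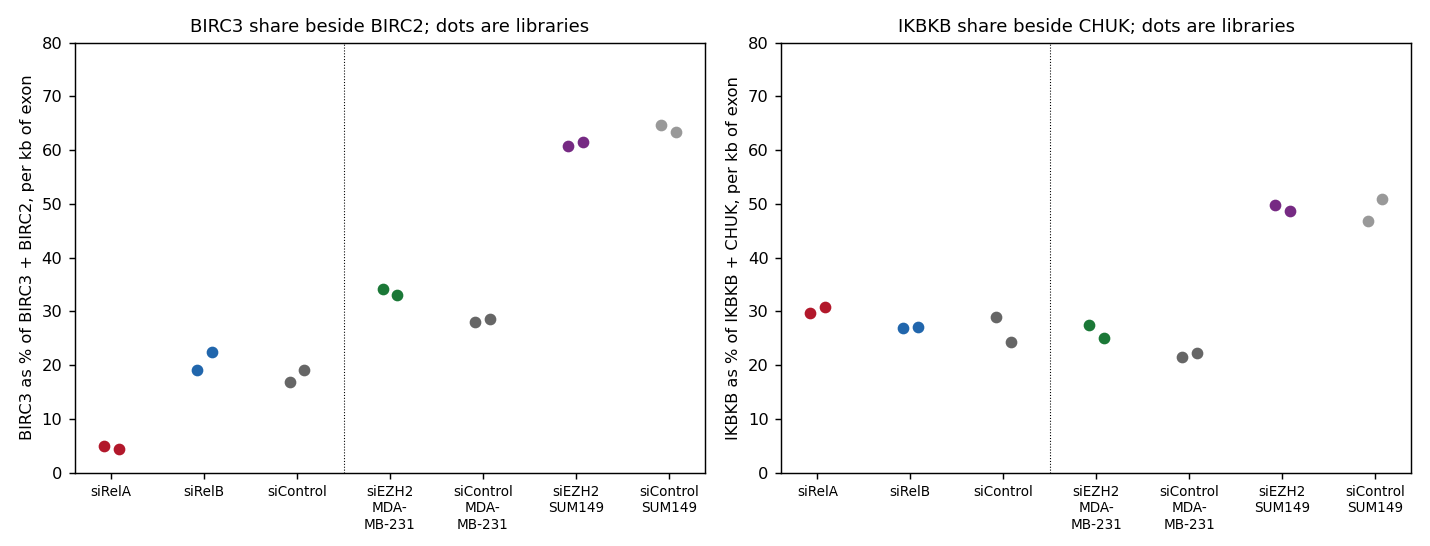
Share of BIRC3 in BIRC2 plus BIRC3 (left) and of IKBKB in IKBKB plus CHUK (right), in percent per kilobase of exon, with 1 dot per library. The dotted line separates the siRel experiment from the siEZH2 experiment; BIRC3 falls to 4.96% and 4.42% in siRelA libraries and exceeds 60% only in SUM149 libraries.

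NFKB2, the precursor that this kinase cascade processes, fell under siRelA (-0.65 ± 0.10, edgeR adjusted p = 2.2e-04) and rose under siRelB (0.50 ± 0.10, adjusted p = 0.0019), and differed between them by -1.14 ± 0.10. The siRelB call was lost without siControl replicate 2 (0.38, adjusted p = 0.056). In MDA-MB-231, NFKB2 fell under siEZH2 (-0.30 ± 0.07, adjusted p = 0.0018 in limma). In SUM149 it did not pass (-0.10 ± 0.07), and was 0.00 without siControl replicate 1 and -0.20 (adjusted p = 0.026) without siControl replicate 2. The interaction was 0.20 ± 0.09 (adjusted p = 0.153), and passed without siControl SUM149 replicate 1 (0.30, adjusted p = 0.032). NFKB2 was lower in SUM149 than in MDA-MB-231 siControl cells (-0.23 ± 0.07, adjusted p = 0.0052), a call lost without siControl MDA-MB-231 replicate 2 (-0.20) or siControl SUM149 replicate 2 (-0.13).

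Around the 10 genes, a list of 60 other genes of the pathway was read in the same fits. It holds ligands, receptors, subunits, further TRAFs and IAPs, kinases, ubiquitin enzymes and IkB family genes. Under siRelA 51 of the 60 were tested, of which 5 rose and 12 fell, with a median of -0.14, where 19.0% of all genes tested passed. Of the 5 NF-kB subunits 4 fell, RELA among them as the siRNA target. Of the 5 IkB family genes 3 fell (NFKBIA, NFKBIB and NFKBIE) and 0 rose, while BCL3 and NFKBIZ did not pass. The largest falls beyond the target were IRAK1, a kinase of interleukin-1 receptor signalling (-1.85 ± 0.08), NFKBIA, which encodes IkB-alpha (-1.21 ± 0.10), and TNFAIP3, the ubiquitin-editing enzyme A20 (-1.15 ± 0.19). The largest rises were the adaptor MYD88 (0.87 ± 0.11), the TWEAK receptor TNFRSF12A (0.76 ± 0.12) and XIAP (0.61 ± 0.11). Under siRelB 5 of 51 rose and 8 fell, with a median of 0.07, where 18.3% of all genes tested passed. TNFRSF12A (1.14 ± 0.12), NFKBIE (0.60 ± 0.10) and TRAF4 (0.57 ± 0.10) rose most, and the IKK-related kinase TBK1 (-1.34 ± 0.13), the receptor IL1R1 (-0.82 ± 0.13) and MYD88 (-0.72 ± 0.12) fell most. Between the siRNAs 8 of 51 genes were higher and 16 lower under siRelA than under siRelB, where 29.9% of all genes tested passed. MYD88 (1.59 ± 0.11), TBK1 (1.23 ± 0.13) and the TWEAK ligand TNFSF12 (0.83 ± 0.21) were highest, and TNFAIP3 (-1.68 ± 0.19), IRAK1 (-1.50 ± 0.08) and NFKBIE (-1.28 ± 0.10) lowest. The TNFSF12 call was lost without siRelB replicate 1 (0.50, adjusted p = 0.081).

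In the siEZH2 experiment 48 of the 60 were tested. In MDA-MB-231 12 rose and 17 fell, with a median of -0.08. XIAP (0.92 ± 0.06), the RANK receptor TNFRSF11A (0.70 ± 0.06) and TNFRSF1A (0.60 ± 0.06) rose most, and the TAK1 partner TAB2 (-1.40 ± 0.06), the kinase RIPK1 (-0.88 ± 0.06) and BIRC5, which encodes survivin (-0.69 ± 0.06), fell most. In SUM149 11 rose and 16 fell, with a median of 0.01. TNFRSF1A (0.72 ± 0.06), IRAK4 (0.71 ± 0.07) and the deubiquitinase CYLD (0.65 ± 0.05) rose most, and BIRC5 (-0.85 ± 0.06), TAB2 (-0.70 ± 0.06) and NFKBIZ (-0.47 ± 0.07) fell most. These counts stand beside 56.6% and 58.0% of all genes called. The interaction passed for 14 of 48 genes, 8 higher and 6 lower, where 21.5% of all genes tested passed. In siControl cells 18 of 48 were higher and 24 lower in SUM149, close to the 82.8% of all genes called, with IRAK1 (1.79 ± 0.06), the lymphotoxin receptor LTBR (1.44 ± 0.06) and REL (1.41 ± 0.07) highest. The TNF receptor TNFRSF1B (-2.41 ± 0.07), CD40 (-2.32 ± 0.06) and TNFRSF11A (-1.56 ± 0.06) were lowest. Of the 7 receptors tested, 3 were higher and 3 lower in SUM149.

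Likeness of pattern was read over the 14 RNA libraries, as Pearson correlation of each gene's deviations from its own siControl mean across 11628 genes tested in both tables. The most like BIRC3 were TOMM20, a mitochondrial import receptor (r = 0.991), C4orf46 (r = 0.988) and the tRNA methyltransferase TRMT10A (r = 0.985). TOMM20 was at -1.45 ± 0.08 under siRelA and 0.16 ± 0.08 under siRelB. Under siEZH2 it was at -0.16 ± 0.05 in MDA-MB-231 and -0.17 ± 0.05 in SUM149, so its largest change was under siRelA. The most like MAP3K14 were SOAT1, a sterol acyltransferase (r = 0.976), TDRP (r = 0.976) and the DNA polymerase subunit POLD3 (r = 0.969). SOAT1 was at 0.14 ± 0.08 under siRelA, 0.67 ± 0.08 under siRelB and -0.17 ± 0.05 under siEZH2 in MDA-MB-231. The libraries of a group share their siRNA and experiment, so the correlations rest on few independent points and are descriptions.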

How the data were processed

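RNA was measured in 14 libraries, grouped by their labels. For siRelA, siRelB and their siControl the authors deposited raw counts per Ensembl gene; per the submitters' processing notes, featureCounts 1.5.0-p3 and HISAT2 2.0.5 were used with hg19 and DESeq2 1.20.0, with no roles given. For siEZH2 and its controls the authors deposited variance-stabilised log2 values per symbol, normalised between libraries; STAR 2.5.2b, Salmon and cutadapt are listed for these, again with DESeq2 and hg19. The sources used here do not state the annotation, the strand setting or how the transformation was set. Positions and exon lengths are from GENCODE v44 (GRCh38), matched by gene identifier (58207 of 58735) and symbol (25024 of 27315, directly or by a RefSeq synonym), with no conversion of builds.

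Counts were fitted with edgeR 4.0.16 (TMM, filterByExpr, glmQLFit, glmQLFTest; 15930 genes, 3 residual degrees of freedom, biological coefficient of variation 10.1%). The variance-stabilised table was fitted with limma 3.58.1 (eBayes with trend; 12356 genes that exceeded the floor of the scale, 7.12, by 1 or more in 2 or more libraries; 4 residual degrees of freedom). Each fit used all libraries of its experiment with group as the term, in R 4.3.3 and Python 3.11.15. The SE given for an edgeR change was derived from the test, as the absolute log2 change divided by the square root of the F statistic. P-values were adjusted by Benjamini-Hochberg over all genes tested. Normalised counts were obtained by inverting the variance-stabilised scale. At low values, 91.4% to 94.1% per library lay within 0.15 of a whole number of reads. The fits were tested on simulated data. Alternatives were another normalisation, filter or test, a replicate block, leaving out each library, and 2 added after seeing the data. The members and gene lists were chosen with earlier results of these data known. Beyond the 10 genes, the text names the siRNA targets, NFKB2, up to 3 called rises and 3 called falls of the pathway list per comparison, genes overlapping or copying a member (not all are reported here), and the 3 genes most like BIRC3 and MAP3K14. The siRelA and siRelB fits called 1405 genes higher and 1626 lower, and 1187 higher and 1726 lower; with library totals only these splits were 1904 and 1207, and 1674 and 1433.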

Additional observations from a re-analysis of the deposited data

Results flagged for a closer look

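The siEZH2 effect differed between the lines, by the limma interaction term (SUM149 minus MDA-MB-231), for 4 of the 10 genes, where it passed for 21.5% of all genes tested. These were BIRC2 (0.67), MAP3K14 (0.38), TRAF1 (0.31) and IKBKB (-0.27). The BIRC2 difference was called in every fit that left out 1 library, whereas those of MAP3K14, TRAF1 and IKBKB were each lost in some of these fits. For TRAF1 the estimates had opposite signs in the lines, with a called rise of 0.18 in SUM149 and an uncalled -0.14 in MDA-MB-231, and for IKBKB they were a called fall of -0.17 in SUM149 and an uncalled 0.11 in MDA-MB-231.

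The siRNA target EZH2 differed in the same term (0.51), and so did RELB (0.52). Of the pathway list, TAB2 (0.71), IL1R1 (0.63) and RIPK1 (0.55) had the highest called differences, and TNFRSF11A (-0.60), NFKBIA (-0.42) and NFKBIZ (-0.37) the lowest. TNFRSF11A did not pass on recovered counts (-0.44, edgeR adjusted p = 0.556) or on the log2 of normalised counts plus 1 (-0.48, adjusted p = 0.290), and NFKBIZ did not pass on the log2 of normalised counts plus 1 (-0.43) or in 4 of the fits that left out 1 library.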

How the results depend on the processing

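Over 913 alternative values of the 10 genes in 7 comparisons, 850 kept their direction and side of the threshold, 41 lost a call, 2 gained one and 20 changed sign, all 20 for changes that had not passed. The count called under siRelB was 1 without a filter on low counts, 1 with a replicate block and 1 in every fit that left out 1 library, in place of 2, since TRAF2 was lost. Without 1 library the count was 3 to 4 for siEZH2 in SUM149 (6 with all) and 1 to 4 for the interaction (4 with all). The replicate numbers share no stated batch, and deviations of same-numbered libraries correlated at -0.21 to 0.09, so the block was read only as an alternative and changed no other call of the 10. Sign changes with all libraries were BIRC2 under siRelB without a filter (-0.0078) and IKBKG between siRelA and siRelB with IKBKGP1 reads added (0.011).

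Sign changes without 1 library gave these ranges. Under siRelA, IKBKG was at -0.12 to 0.43. Under siRelB, IKBKG was at -0.037 to 0.52, TRAF3 at -0.14 to 0.015 and BIRC2 at -0.077 to 0.092. Between siRelA and siRelB, IKBKG was at -0.26 to 0.066 and TRAF6 at -0.029 to 0.26. Under siEZH2 in SUM149, MAP3K14 was at -0.065 to 0.042, TRAF6 at -0.018 to 0.071 and NFKB2 at -0.20 to 0.0020. In the interaction, CHUK was at -0.041 to 0.065 and TRAF2 at -0.053 to 0.13.

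Over all genes, the siRelA calls numbered 3031 and were 1624 and 1786 without siControl replicate 1 and 2; the siRelB calls numbered 2913 and were 1754 and 1520. The interaction calls, 2662 with all libraries, were 1611 to 2532 without 1 library. The causes of these shifts were not tested. With 2 libraries a group, the SE of a member's change was 0.09 to 0.19 in edgeR and 0.05 to 0.11 in limma, which limits what could be resolved.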
